A study of Mus musculus with 12 samples.

Results

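The comparison covers 6 of the 12 libraries of a series on adult mouse neural stem/progenitor cells (aNSPCs), namely the 3 proliferating controls and the 3 differentiated controls that received no NAD+, nicotinamide adenine dinucleotide, the agent whose effect the series was built to measure. The cells came from the forebrains of C57BL/6 mice aged 8 to 10 weeks and were grown in a medium with EGF and FGF-2, each at 20 ng/mL. In the differentiation assay of the study, retinoic acid at 1 µM and forskolin at 5 µM were added for 48 h, and no source used here says whether the 2 growth factors were then taken away or whether RNA was collected at that same time. The other 6 libraries are the same 2 culture conditions with NAD+ at 1 mM. One label field calls all 12 libraries untreated, so the groups rest on the sample titles, which carry p or D for the condition and ctrl or NAD for the exposure. The study calls the 3 samples of a group biological repeats. Whether replicates 1, 2 and 3 came from separate cultures or animals is not in the labels, and the p-values then measure only the spread between these libraries. Members of the comparison were all 12937 genes with a mean of at least 1 FPKM (fragments per kilobase of exon, scaled to the mapped fragments of a library) over the 6 libraries, out of 55401 listed genes, of which 26031 were at 0 in all 6.

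Neural stem cells of the adult forebrain divide under EGF and FGF, which act through receptor tyrosine kinases and the ERK cascade, while Notch and its HES targets hold them undifferentiated. On leaving the cycle they can become neurons, astrocytes or oligodendrocytes, and each lineage switches on its own set of structural genes. Retinoic acid binds the RAR and RXR nuclear receptors at DNA elements of its target genes, and forskolin activates adenylyl cyclase, so that cAMP, protein kinase A and the transcription factor CREB are engaged.

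The 2 conditions were deposited in 2 separate tables, so that condition and table cannot be told apart, and whether both were scaled in one run is not given in the sources used here. Summed FPKM lay between 311162 and 363330 in the proliferating libraries and between 324252 and 330244 in the differentiated ones. Proliferation replicate 1 stood apart, with the highest sum and a correlation of 0.945 to 0.946 with the other two of its group, which correlated at 0.976 with each other over tested genes on the log2 scale. Correlations were 0.968 to 0.971 within the differentiated group and 0.780 to 0.810 between the groups. The 37 genes of the mitochondrial genome took 19.9%, 18.0% and 17.7% of summed FPKM in proliferation replicates 1, 2 and 3 and 28.9%, 29.8% and 28.9% in the differentiated replicates, with no overlap (29.2% ± 0.507 against 18.5% ± 1.18, SD, n = 3 each, exact permutation test, two-sided, p = 0.1, the smallest that 3 against 3 allows). With 7 nuclear copies of mitochondrial sequence on chromosome 1 (chr1:24611535-24616197, GRCm38) added, the shares were 40.8% ± 0.402 and 25.7% ± 1.23. All other genes together summed to 193319 ± 639 FPKM in the differentiated and 244709 ± 17661 FPKM in the proliferating libraries, so a gene of constant share among those other genes would have a lower FPKM under differentiation. Bulk FPKM are shares of RNA, and fewer cells of a type cannot be told apart from less of its RNA per cell.

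**Figure D1:**
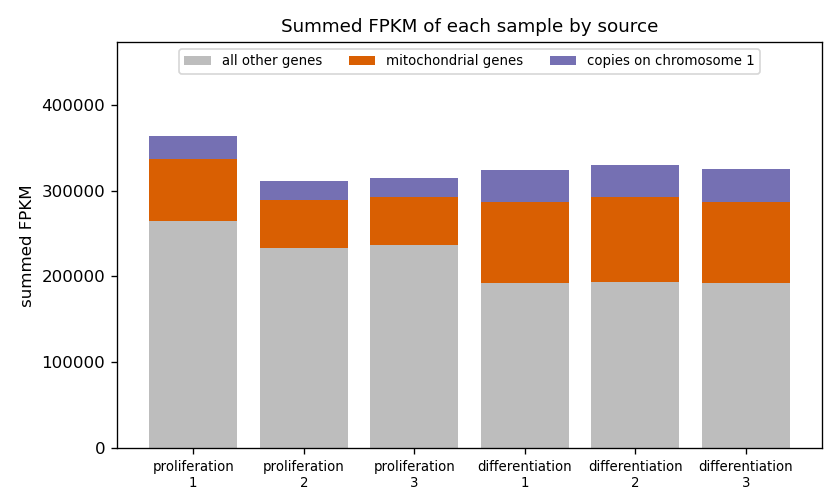
Summed FPKM (vertical axis) of each of the 6 libraries, split into mitochondrial genes, their 7 copies on chromosome 1 and all other genes. The mitochondrial part is larger and the remainder smaller in all 3 differentiated libraries than in any proliferating one.

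In the limma fit of log2(FPKM + 0.1), 8093 of the 12937 tested genes (62.6%) differed between differentiation and proliferation at an adjusted p under 0.05, 2865 higher (22.1%) and 5228 lower (40.4%) under differentiation. Fold changes are on that scale throughout, differentiation minus proliferation, and understate the change of genes near 0. A gene near 0 in one group was tested only where the other group lifted its mean to at least 1 FPKM. A change of at least 2-fold on top of the adjusted p was reached by 3285 genes (25.4%), of which 1293 were higher (9.99% of tested genes) and 1992 lower (15.4%). The split between higher and lower depended on scaling. Of the 2-fold calls, 39.4% were higher as deposited, 47.8% with median-ratio scaling, 55.6% with equal sums of all genes but the mitochondrial ones, 65.3% when the chromosome 1 copies were also left out of the sums and 54.5% with quantile normalization. The median change of all tested genes moved accordingly from -0.21 as deposited to -0.10, -0.0021, 0.12 and -0.03, so changes are given below beside the deposited median of -0.21, and the counts of each gene list are to be read against the percentages above. Of the genes named below that passed, Axin2, Bub1b, Gjc3, Glul, Id2, Kcnj10, Meis1, Myc, Smc4, Sox2, Sufu, mt-Nd1 and mt-Co1 lost the call under at least 1 of these scalings, while Aldh1l1, Cdkn1b, Egfr, Msi2, Nr4a1, Pax6, Pdgfra, Sox9, Srebf2, Stat3, Tubb3, mt-Nd2 and mt-Nd3, which did not pass as deposited, passed as higher under at least 1. Quantile normalization instead gave mt-Nd2 a call as lower (log2 change -0.54, limma adjusted p = 0.0045). Leaving out proliferation replicate 1 gave a call to Aldh1l1 and mt-Nd2 as higher and to Cspg4, Notch1 and Srebf2 as lower. Cox4i1 passed as lower without differentiation replicate 2 or proliferation replicate 3, Stat3 as higher without proliferation replicate 2 and Tubb3 as higher without differentiation replicate 2.

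**Figure D2:**
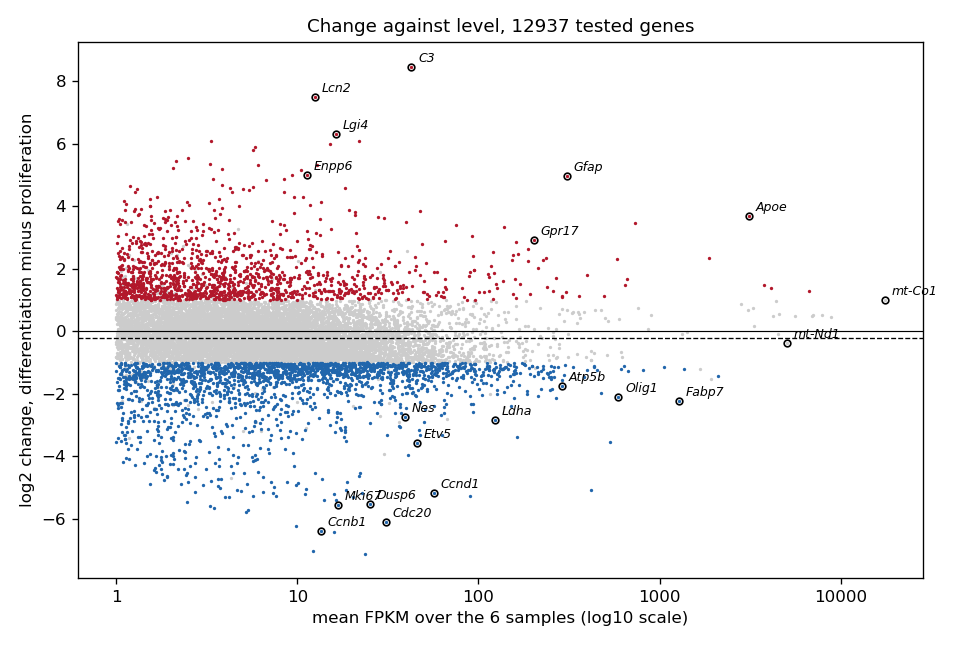
Log2 change from proliferation to differentiation (vertical axis) against mean FPKM over the 6 libraries (horizontal axis, log10 scale) for the 12937 tested genes. Red and blue points are the 1293 higher and 1992 lower 2-fold calls, grey points the rest, and the dashed line is the median of -0.21, with the named genes circled. The strongest rises are C3 and Lcn2, and cell cycle genes lie among the strongest falls.

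The genes of cell division had the lowest medians of all lists. All 41 listed G2/M and mitosis genes were tested and all fell, 39 of them at least 2-fold, with a median log2 change of -4.66 against -0.21 for all tested genes. Mki67, the gene of the Ki-67 proliferation antigen, measured 19.8, 39.7 and 40.0 FPKM in proliferation replicates 1 to 3 and 0.64, 0.43 and 0.69 FPKM in the differentiated replicates (log2 change -5.55 ± 0.31 SE, limma adjusted p = 2.4e-05). Every differentiated library was far below every proliferating one, and proliferation replicate 1 was lower than the other two of its group. Ube2c, the ubiquitin-conjugating enzyme of the anaphase-promoting complex, went from 35, 28.1 and 31.7 FPKM to 0.36, 0.24 and 0.22 FPKM (log2 change -6.42 ± 0.17 SE), and Ccnb1, the mitotic cyclin B1, from 29.3, 24.6 and 26.5 to 0.21, 0.17 and 0.3 (log2 change -6.38 ± 0.17 SE). In both genes the 3 proliferating libraries were close together and the differentiated ones near the lower end of the scale. Cdc20, the activator of the anaphase-promoting complex, averaged 61.2 ± 4.47 FPKM and then 0.797 ± 0.085 FPKM (SD, n = 3 each). The members that fell least were the spindle checkpoint kinase Bub1b, with 16.8 ± 1.92 and 10.5 ± 0.597 FPKM (log2 change -0.67 ± 0.11 SE), and the condensin subunit Smc4, with a log2 change of -0.87 ± 0.16 SE. Condensin genes as such did not share this, since Ncaph fell by 3.75 and Ncapg by 4.04 on the log2 scale.

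Of the 41 tested genes of DNA replication and S phase, 40 fell, 38 of them at least 2-fold, and the median log2 change was -2.47. The helicase subunit gene Mcm5 measured 18, 22.9 and 24.4 FPKM in proliferation and 0.71, 0.44 and 0.53 FPKM under differentiation (log2 change -5.06 ± 0.19 SE, limma adjusted p = 7.5e-06), again with no overlap. The subunits of the helicase did not fall to the same degree, from -5.06 for Mcm5 and -3.77 for Mcm2 to -1.97 for Mcm7 on the log2 scale. Rrm2, the regulated subunit of ribonucleotide reductase, went from 42.3 ± 6.31 to 1.63 ± 0.34 FPKM, and Uhrf1, which maintains DNA methylation behind the fork, from 19.6 ± 5.23 to 0.573 ± 0.0757 FPKM. Pcna, the polymerase clamp, was still at 18.1 ± 0.5 FPKM after a fall from 95.5 ± 2.81 FPKM. Rpa1, the large subunit of the single-strand binding protein, was the exception, at 15.4, 26.3 and 19.2 FPKM and 18.4, 19.6 and 26.8 FPKM with overlapping groups (log2 change 0.11 ± 0.22 SE, adjusted p = 0.7, limma), while its partner Rpa2 fell by 1.48 on the log2 scale.

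Short promoter stretches of 3 mitotic and 3 replication genes are shown to put letters to these 2 groups, because mitotic genes are known for CCAAT boxes next to a cell cycle homology region (CHR) and replication genes for E2F sites. Promoters were the 250 bases before each RefSeq gene start on GRCm38.p6, searched on both strands, and 9159 of the tested genes had an entry. CCAAT stood in 28 of 34 mitosis promoters (82.4%) against 41.4% of all tested promoters, and the CHR letters TTTGAA or TTCGAA in 17 of 34 (50.0%) against 13.8%. The E2F letters TTTGGCGC or TTTCGCGC stood in 5 of 32 replication promoters (15.6%) against 1.56%. Capitals mark CCAAT and CHR matches in the mitotic genes and E2F matches in the replication genes, in either orientation, and a pair of E2F matches on opposite strands overlaps in Mcm5 and another pair in Mcm6. The stretches are Ccnb2 (cyclin B2) at chr9:70421556-70421736, Mki67 at chr7:135716457-135716582, Top2a (topoisomerase 2A) at chr11:99024192-99024431, all on the minus strand, Mcm5 at chr8:75109341-75109382 on the plus strand, Mcm6 at chr1:128359730-128359830 on the minus strand and Uhrf1 at chr17:56304113-56304150 on the plus strand. In Ccnb2 the marked CHR letters lie 167 to 162 bases before the start and the CCAAT boxes between 87 and 17 bases before it. They are not next to each other there. A match describes the letters and was not tested as a binding site.
Ccnb2: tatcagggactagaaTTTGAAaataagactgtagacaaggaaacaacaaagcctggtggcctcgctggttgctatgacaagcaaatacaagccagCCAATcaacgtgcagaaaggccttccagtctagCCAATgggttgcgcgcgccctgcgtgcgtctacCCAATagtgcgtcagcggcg
Mki67: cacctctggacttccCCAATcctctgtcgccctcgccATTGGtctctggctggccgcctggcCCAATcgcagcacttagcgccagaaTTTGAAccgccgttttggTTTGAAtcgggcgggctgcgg
Top2a: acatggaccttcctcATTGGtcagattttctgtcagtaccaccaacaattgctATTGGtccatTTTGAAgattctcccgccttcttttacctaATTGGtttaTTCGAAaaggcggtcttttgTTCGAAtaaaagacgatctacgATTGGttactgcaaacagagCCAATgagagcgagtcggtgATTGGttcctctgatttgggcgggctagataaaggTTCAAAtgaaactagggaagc
Mcm5: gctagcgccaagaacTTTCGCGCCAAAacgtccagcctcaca
Mcm6: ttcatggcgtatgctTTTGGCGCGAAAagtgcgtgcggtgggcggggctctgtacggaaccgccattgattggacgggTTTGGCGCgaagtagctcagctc
Uhrf1: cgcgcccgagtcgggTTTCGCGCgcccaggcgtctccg

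Upstream of S phase, the genes of cyclins D1 and D2 fell, and no listed inhibitor of their kinases rose as deposited or with median-ratio scaling. Ccnd1 (cyclin D1) measured 79.9, 123 and 129 FPKM in proliferation and 2.7, 2.71 and 3.32 FPKM under differentiation, and Ccnd2 (cyclin D2) 34.1, 49.4 and 49.5 and 1.22, 1.11 and 1.02 FPKM. Both had a log2 change of -5.17 (SE 0.20 and 0.17, limma adjusted p = 7.6e-06 and 4.9e-06), with proliferation replicate 1 the lowest of its group in each. Ccnd3 was low, at 2.67 ± 0.557 and 2.96 ± 1.31 FPKM, and did not pass. Among the inhibitors, Cdkn1a (p21) averaged 39.7 ± 11.1 and 31.2 ± 4.65 FPKM and Cdkn1b (p27) 19.4 ± 2.7 and 23.1 ± 3.73 FPKM, neither past the test (adjusted p = 0.21 and 0.18, limma). Cdkn1b passed as higher with 3 of the other scalings, by 0.46 to 0.62 on the log2 scale. Cdkn2c (p18) fell from 37.4 ± 7.35 to 6.9 ± 1.82 FPKM and Cdkn2a, which encodes p16 and ARF, from 29.8 ± 5.27 to 12.3 ± 1.15 FPKM. Of the 16 tested genes of this list 9 fell, and the only one to rise was Rb1, the retinoblastoma protein gene, by 0.49 on the log2 scale.

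Genes that report EGF and FGF signalling were lower as well. Of 18 tested feedback genes of the ERK cascade 14 fell, 11 of them at least 2-fold, and 1 rose, with a median log2 change of -1.54. Dusp6, the ERK phosphatase, measured 33.4, 57.8 and 57.4 FPKM and then 1.09, 0.69 and 1.1 FPKM (log2 change -5.53 ± 0.27 SE, limma adjusted p = 1.5e-05), and the groups were far apart although proliferation replicate 1 was again lower. Spry4, a Sprouty inhibitor of receptor signalling, went from 14.8, 29.1 and 28.3 to 0.75, 1.27 and 0.74 FPKM, and its relative Spry2 from 76.3 ± 9.89 to 21.9 ± 0.723 FPKM. The ETS factors Etv4 and Etv5 fell by 3.21 and 3.58 on the log2 scale. The one riser was Lrig1, which restrains EGF receptors, from 121 ± 3.22 to 158 ± 5.18 FPKM (log2 change 0.39 ± 0.06 SE). The EGF receptor gene Egfr itself averaged 28.2 ± 3.05 and 25.9 ± 0.741 FPKM and did not pass (adjusted p = 0.31, limma), and Myc fell by 0.87 on the log2 scale.

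**Figure D3:**
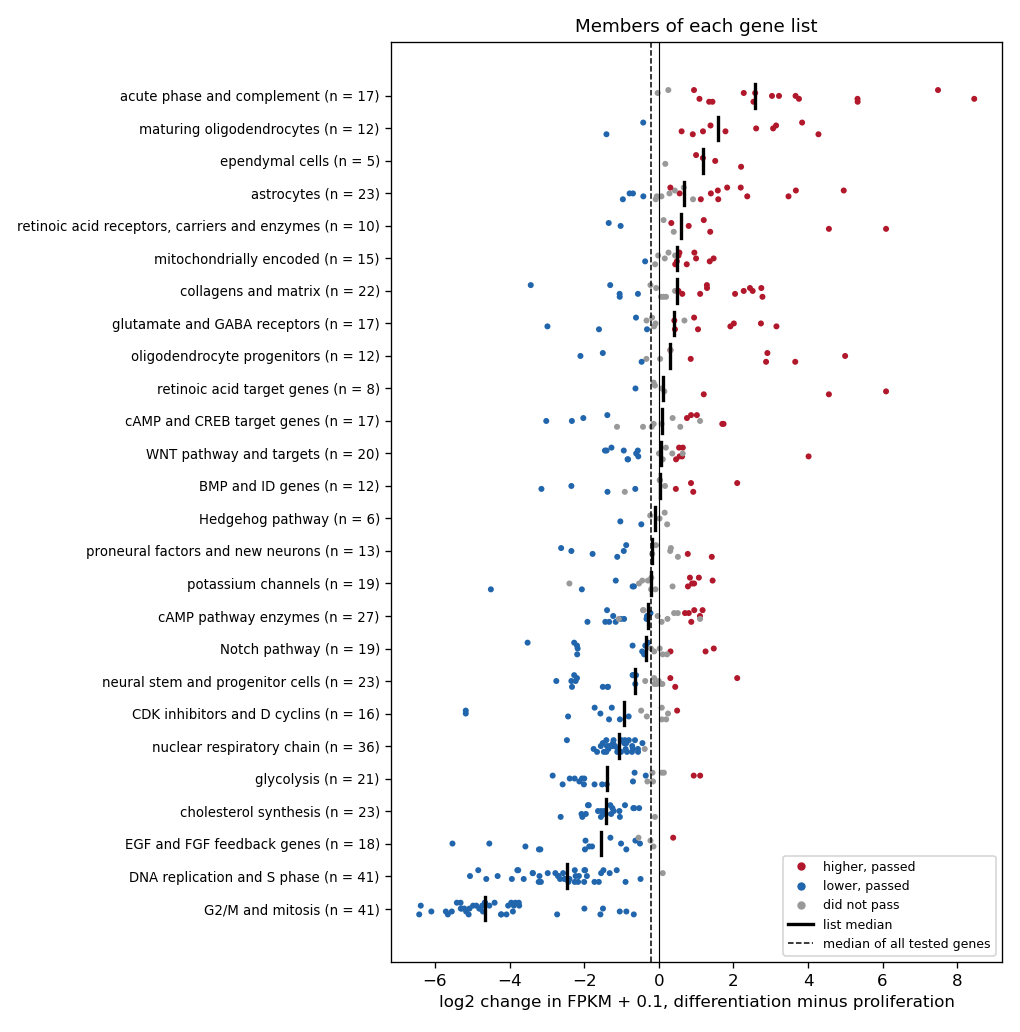
Log2 change from proliferation to differentiation (horizontal axis) of every tested member of 26 gene lists, ordered by their medians (black bars), with members past the limma test in red (higher) or blue (lower) and others in grey. The dashed line is the median of all tested genes, and the list medians run from -4.66 for mitosis to 2.58 for acute phase and complement genes.

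Genes of stem and progenitor cells changed unevenly. Of 23 tested, 13 fell, 9 of them at least 2-fold, 3 rose and 7 did not pass, and the median log2 change was -0.63, or -0.14 with quantile normalization. Nes, the intermediate filament nestin, measured 47.8, 77.6 and 80.9 FPKM in proliferation and 10.8, 9 and 9.94 FPKM under differentiation (log2 change -2.75 ± 0.21 SE, limma adjusted p = 7.3e-05). Fabp7, the brain fatty acid binding protein and one of the highest nuclear genes of the proliferating cells, went from 2107 ± 127 to 449 ± 26 FPKM. Other stem cell genes stayed high. Sox2 was at 252, 206 and 217 FPKM and 145, 152 and 143 FPKM, a fall of 0.61 on the log2 scale with no overlap, and Sox9 at 39.5 ± 1.54 and 38.1 ± 0.949 FPKM without passing (adjusted p = 0.51, limma). Pax6, Msi2, Vim, Egfr, Notch1 and Rest did not pass either, and Msi1, Slc1a3 and Id4 rose.

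Genes of the Notch and BMP pathways also moved in both directions. Of 19 tested Notch genes 11 fell and 3 rose. The targets Hes1, Hes5 and Nrarp fell by 2.19, 2.27 and 3.52 on the log2 scale, Hes5 from 93, 71.5 and 72 to 16.4, 15.6 and 16.5 FPKM, and the ligand Jag1 by 2.17. The receptor Notch2 rose from 3.01 ± 0.457 to 8.48 ± 0.515 FPKM (log2 change 1.47 ± 0.13 SE) while Notch1 was at 15.9 ± 2.61 and 14.4 ± 0.307 FPKM and did not pass. Among the ID genes, whose products block bHLH factors, Id1, Id2 and Id3 fell, Id3 from 151, 159 and 161 to 31.6, 32.9 and 28.1 FPKM. Id4 went the other way, from 8.35, 5.43 and 5.96 to 28.9, 29.1 and 26.4 FPKM (log2 change 2.10 ± 0.16 SE, limma adjusted p = 7.8e-05). The 12 tested BMP and ID genes had 4 rises and 4 falls, and Bmp7, a secreted BMP ligand, fell from 14.5 ± 1.24 to 1.55 ± 0.185 FPKM.

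Genes of new neurons were mostly under the minimum level. Of 41 listed proneural and neuronal genes 28 did not reach a mean of 1 FPKM, and of the 13 tested 6 fell, 2 rose and 5 did not pass, with a median log2 change of -0.18, close to the -0.21 of all genes. Dcx (doublecortin), a microtubule protein of migrating neuroblasts, rose from 1.02, 1.82 and 1.63 to 3.96, 3.82 and 4.39 FPKM (log2 change 1.42 ± 0.22 SE, limma adjusted p = 0.0014), with no overlap but at a low level. Elavl3, a neuronal RNA-binding protein gene, was the other riser, from 3.09 ± 0.342 to 5.35 ± 0.454 FPKM. Tubb3, whose product is the neuronal tubulin of the Tuj1 antibody, measured 9.44, 9.37 and 9.71 FPKM and 14.2, 9.76 and 11.8 FPKM, the differentiated values all above the proliferating ones, and did not pass (log2 change 0.31 ± 0.14 SE, adjusted p = 0.095, limma). Gap43, Stmn1 and Sox11, growth cone, tubulin-binding and SoxC factor genes of young neurons, fell by 2.34, 2.62 and 1.77. Among genes under the minimum, the neurogenic factors Neurod1 and Eomes were at most 0.36 and 0.03 FPKM in any library, the neuronal nuclear gene Rbfox3 at most 0.25 FPKM and Neurog2 was listed at 0 in all 6.

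Astrocyte genes had the opposite balance. All 23 were tested, 12 rose, 10 of them at least 2-fold, 4 fell and 7 did not pass, with a median log2 change of 0.67. Gfap, the glial intermediate filament, measured 20.2, 19.5 and 17.5 FPKM in proliferation and 598, 546 and 642 FPKM under differentiation, a 31.2-fold ratio of means (log2 change 4.96 ± 0.09 SE, limma adjusted p = 1.5e-06). Apoe, the main lipid carrier of glia, was at 877, 315 and 315 FPKM and then 5547, 4920.3 and 6644 FPKM, so that proliferation replicate 1 was well above the other two of its group and still below every differentiated library. The water channel gene Aqp4 went from 13.7, 5.82 and 5.23 to 31.8, 33.7 and 38.9 FPKM with the same replicate highest, and Ntsr2, a neurotensin receptor gene of astrocytes, from 9.44, 7.2 and 3.86 to 78.9, 68.4 and 70.3 FPKM. Glutamate uptake genes rose, Slc1a2 (GLT-1) from 17.7 ± 1.27 to 53 ± 1.73 FPKM and Slc1a3 (GLAST) by 0.31 on the log2 scale, a call that leaving out any 1 differentiated replicate ended. The falls were S100b, Aldoc, Glul and Acsbg1, of which Acsbg1, a fatty acyl-CoA synthetase gene, fell most, by 0.96, and Aldh1l1 did not pass at 92.3 ± 32.1 and 93.5 ± 2.83 FPKM, but passed as higher by 0.34 without proliferation replicate 1.

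The acute phase and complement genes, which reactive astrocytes are known to express, had the highest median, 2.58, and 15 of the 17 tested rose, 14 of them at least 2-fold. The other 6 of the 23 listed genes did not reach the minimum level. The list median relative to all genes was 2.79, and 2.02 without a minimum level. C3, the central complement protein, had the largest rise of all named genes, from 0.37, 0.09 and 0.06 to 90.9, 81 and 83.7 FPKM (log2 change 8.46 ± 0.38 SE, limma adjusted p = 1.3e-05). Lcn2 (lipocalin 2), an iron-siderophore binding protein, went from 0.08, 0 and 0.05 to 27.6, 21.6 and 25.7 FPKM, and the chemokine gene Cxcl10 from 0.28, 0.19 and 0.14 to 12.6, 10.8 and 12.2 FPKM. All 3 were close to 0 in every proliferating library and at 10 FPKM or more in every differentiated one. They reached the minimum level only through the differentiated libraries. Serpina3n and C4b, which already stood at 20.0 ± 3.8 and 4 ± 0.626 FPKM, reached 163 ± 14.4 and 51.8 ± 6.12 FPKM. Of the signalling genes on the list, Socs3, the feedback inhibitor of STAT3 signalling, rose from 0.477 ± 0.118 to 2.67 ± 0.326 FPKM and the transcription factor gene Cebpb from 2.51 ± 0.28 to 15.7 ± 2.74 FPKM, and Stat3 was at 15.4 ± 1.52 and 18.4 ± 1.1 FPKM without passing. All 10 microglial markers were under 1 FPKM on average, and they summed to at most 0.61 FPKM in a proliferating and 0.47 FPKM in a differentiated library. The complement gene C1qa was at most 0.21 FPKM. Endothelial markers (9 genes) summed to at most 1.18 FPKM and mural cell and fibroblast markers (11 genes) to at most 1.80 FPKM.

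In the oligodendrocyte lineage, founding factors fell and genes of later steps rose. Among 12 progenitor genes 6 rose and 3 fell, and Olig1 and Olig2, its founding bHLH factors, fell from 961 ± 75.4 to 224 ± 11.5 and from 334 ± 24.9 to 118 ± 4.44 FPKM. Pdgfra and Cspg4, which mark dividing progenitors, did not pass. The genes of the step between progenitor and myelinating cell rose, Gpr17, a receptor of that step, from 43.3, 54.1 and 44.8 to 329, 386 and 353 FPKM and Enpp6, a choline phosphodiesterase gene of newly formed oligodendrocytes, from 1.06, 0.53 and 0.34 to 19.1, 26.7 and 20.1 FPKM (log2 change 5.00 ± 0.35 SE, limma adjusted p = 5.5e-05). Of 12 tested genes of maturing oligodendrocytes 10 rose, 8 at least 2-fold, and 2 fell, with a median log2 change of 1.59. The other 4 of the 16 listed genes did not reach the minimum level. The list median relative to all genes was 1.80, and 1.24 without a minimum level. Mbp (myelin basic protein) measured 0.76, 0.46 and 0.45 FPKM and then 4.89, 6.86 and 4.37 FPKM (log2 change 3.06 ± 0.25 SE, limma adjusted p = 0.0001), and Myrf, the transcription factor that switches on myelin genes, 0.82, 0.96 and 0.72 and 7.44, 9.43 and 7.59 FPKM. Differentiation replicate 2 was the highest library in both, and the groups did not overlap. Both genes reached the minimum level only through the differentiated libraries. Late genes did not move together, since changes on this list ran from -1.40 to 4.28 on the log2 scale. Mog stayed low, at most 0.09 FPKM, and Aspa and Gjc3 fell by 1.40 and 0.42. The call of Gjc3 was lost without differentiation replicate 1 or 2 or proliferation replicate 3.

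**Figure D4:**
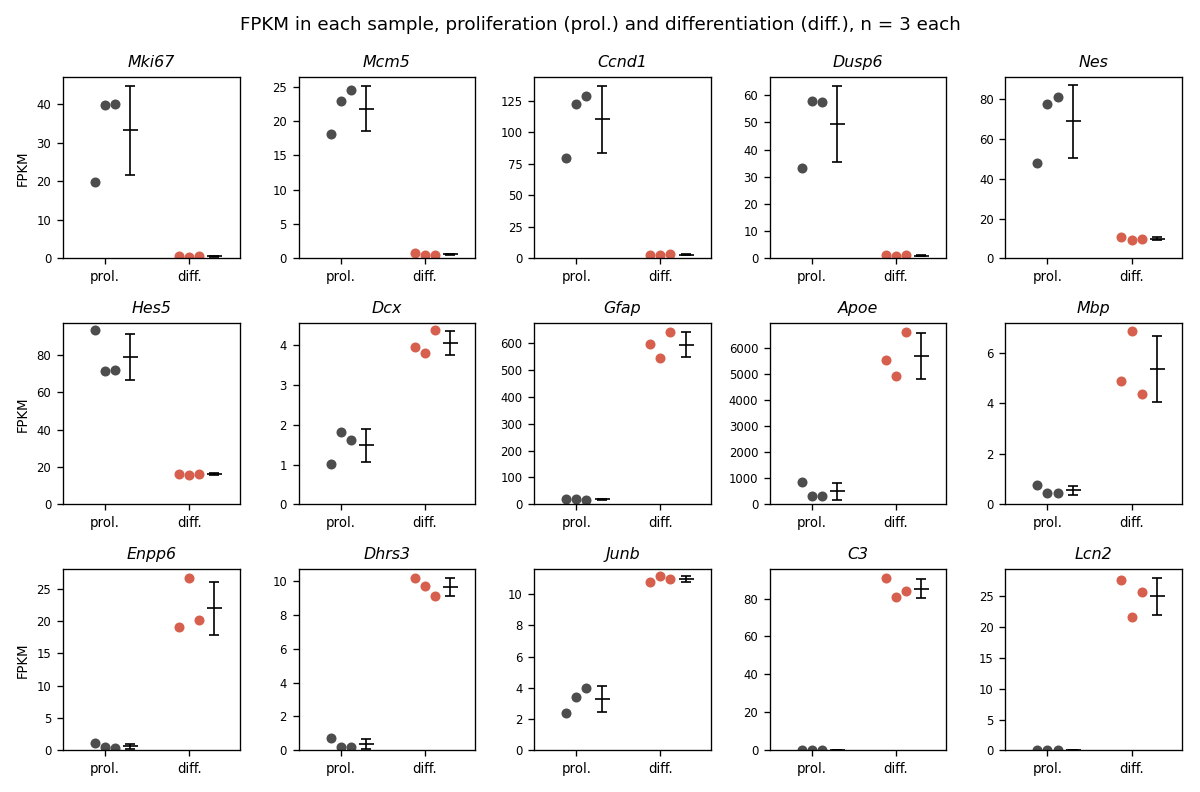
FPKM (vertical axes, each from 0) of 15 genes in the 3 proliferating (grey) and 3 differentiated (red) libraries, drawn in replicate order, with the mean and SD beside them (n = 3). Mki67, Mcm5, Ccnd1, Dusp6, Nes and Hes5 are higher in proliferation. Dcx, Gfap, Apoe, Mbp, Enpp6, Dhrs3, Junb, C3 and Lcn2 are higher under differentiation. No gene shown has overlapping groups.

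Genes tied to the 2 added agents, retinoic acid and forskolin, were looked at next. Of 10 tested retinoid receptors, carriers and enzymes 6 rose and 2 fell, while 11 listed genes did not reach the minimum level. Risers under 1 FPKM in proliferation, such as Dhrs3, Rarb and Rarg below, reached that level only through the differentiated libraries. The list median relative to all genes was 0.81, and 0.29 without a minimum level. Summed FPKM of all 21 listed genes was 236 to 254 in proliferation and 196 to 199 under differentiation. Dhrs3, a retinal reductase that is itself induced by retinoic acid, went from 0.71, 0.2 and 0.19 FPKM in proliferation to 10.2, 9.68 and 9.11 FPKM under differentiation (log2 change 4.56 ± 0.40 SE, limma adjusted p = 0.00012). Among the receptor genes, Rara fell from 3.55, 3.55 and 4.05 to 1.18, 1.39 and 1.68 FPKM while Rarb rose from 0.6, 0.81 and 0.64 to 1.71, 1.76 and 1.62 FPKM and Rarg from 0.55, 0.43 and 0.58 to 1.53, 1.45 and 1.53 FPKM. Several genes used elsewhere as retinoic acid reporters were not seen here, and Cyp26a1 and Crabp1 were listed at 0 in all 6 libraries, with Cyp26b1 and Stra6 at most 0.11 and 0.02 FPKM. Of 8 tested target genes, a list that shares members such as Rarb and Dhrs3 with the first, 3 rose, all of them shared, Meis1 fell and 4 did not pass, and the call of Meis1 was kept when differentiation replicate 1 was left out and lost without any other library.

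The Rarb promoter is the known example of a retinoic acid response element with 5 bases between its half-sites, and the site is shown because Rarb rose here. It lies at chr14:16575507-16575535 on the minus strand of GRCm38.p6 (RefSeq start), 53 to 37 bases before the start and inside an exon that GENCODE annotates for another Rarb transcript, with the match in capitals. Such an element stood in 0.0218% of tested promoters and in 1 of 7 promoters of the retinoid list. That 1 is Rarb itself, chosen as the known example, so the count is no measure of enrichment.
Rarb: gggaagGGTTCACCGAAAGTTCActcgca

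Genes known to respond to cAMP and CREB moved in both directions. Of 17 tested 5 rose, 4 fell and 8 did not pass, with a median log2 change of 0.08, while 18 listed genes did not reach the minimum level. Junb, an AP-1 subunit gene, rose from 2.41, 3.43 and 4.01 to 10.7, 11.1 and 11 FPKM (log2 change 1.74 ± 0.18 SE, limma adjusted p = 0.00025), Fos from 6.99, 5.16 and 4.92 to 11.4, 11.1 and 12.1 FPKM and Sik1, a kinase that turns CREB signalling down, from 0.64, 0.63 and 0.62 to 2.24, 2.39 and 2.2 FPKM. The clock gene Per1 and the orphan receptor Nr4a2 rose by 0.76 and 0.87 on the log2 scale, the latter without a call when differentiation replicate 1 was left out. Egr1, which growth factors also induce, fell from 12.9, 26.9 and 28.9 to 4.48, 5.13 and 6.22 FPKM, and the MAP kinase phosphatase Dusp1 from 3.39, 3.17 and 3.12 to 0.67, 0.61 and 0.43 FPKM, and Nptx2 and Ppargc1a fell too. Crem and Nr4a1 did not pass (adjusted p = 0.46 and 0.13, limma). The neuropeptide gene Sst, a textbook CREB target, was at most 0.06 FPKM. Of 27 tested enzymes of the pathway 11 fell and 6 rose, with Adcy5, a forskolin-sensitive adenylyl cyclase, from 1.04 ± 0.0666 to 2.35 ± 0.206 FPKM and the protein kinase A inhibitor gene Pkig from 10.4 ± 1.6 to 2.68 ± 0.144 FPKM.

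The letters TGACG, the half-site of the cAMP response element, stood in 10 of 12 promoters of the cAMP target list (83.3%) against 31.8% of tested promoters, counting both strands. Those of 2 genes that rose are shown with the half-sites in capitals, Fos at chr12:85473746-85473843 on the plus strand and Junb at chr8:84978835-84978869 on the minus strand. Whether these letters bear on the changes was not tested.
Fos: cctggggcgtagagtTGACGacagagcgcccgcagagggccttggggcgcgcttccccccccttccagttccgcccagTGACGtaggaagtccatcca
Junb: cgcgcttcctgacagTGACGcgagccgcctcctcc

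Metabolic genes fell broadly outside the mitochondrial genome. Of 23 tested genes of cholesterol synthesis and uptake 22 fell, 18 at least 2-fold, with a median log2 change of -1.42. Hmgcs1, an early enzyme of the mevalonate pathway, measured 329, 369 and 408 FPKM and then 139.8, 128 and 132 FPKM, and Fdps, which makes farnesyl pyrophosphate, went from 59.6 ± 6.63 to 9.52 ± 0.646 FPKM (log2 change -2.63 ± 0.11 SE, limma adjusted p = 8.7e-06). Srebf2, the transcription factor gene of the pathway, was at 55.8 ± 5.47 and 51.8 ± 1.53 FPKM and did not pass. All 16 listed genes with a promoter entry held CCAAT (41.4% of tested promoters did), and the stretch of Mvd, which makes isopentenyl pyrophosphate and fell by 1.90, is shown with its 2 boxes in capitals (chr8:122443430-122443497, minus strand).
Mvd: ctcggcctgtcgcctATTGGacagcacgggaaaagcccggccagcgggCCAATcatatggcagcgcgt

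Of 21 tested glycolysis genes 14 fell, 11 at least 2-fold, 2 rose and 5 did not pass, and the median log2 change was -1.40. Ldha, the lactate dehydrogenase A subunit, went from 210.5, 219 and 221 to 28.6, 40.4 and 23.6 FPKM (log2 change -2.84 ± 0.19 SE, limma adjusted p = 4.4e-05), Tpi1 from 159 ± 9.26 to 27 ± 6.51 FPKM and Pkm from 342 ± 27.4 to 81.9 ± 3.57 FPKM. The muscle-type phosphofructokinase Pfkm went the other way, from 83.2, 88.7 and 83.9 to 161, 167 and 162 FPKM (log2 change 0.94 ± 0.06 SE), against a fall of 2.00 for the liver-type gene Pfkl, and the neuronal enolase Eno2 rose to 1.68 ± 0.103 FPKM while Eno1 fell to 48.6 ± 3.75 FPKM. Gapdh was listed at only 9.93 ± 2.21 and 11.2 ± 3.96 FPKM. Of 14 genes often used as references 10 fell and 0 rose as deposited, and 7 fell and 1 rose when mitochondrial genes and their copies were left out of the sums (median log2 change as deposited -0.73), with Rpl13a lower by 1.37 as deposited.

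Nuclear and mitochondrial genes of the respiratory chain moved apart. Of 36 nuclear genes of the complexes 35 fell and 0 rose, with a median log2 change of -1.06, and Cox4i1 did not pass. Cycs (cytochrome c) fell most, from 73.4, 60.8 and 67.4 to 11.8, 12.2 and 12.3 FPKM (log2 change -2.46 ± 0.09 SE, limma adjusted p = 6.5e-06), and Atp5b, the catalytic subunit of ATP synthase, went from 448 ± 32.5 to 133 ± 6.02 FPKM. At least 2-fold falls numbered 20, and 16 without proliferation replicate 1, which was the highest of its group for 34 of the 36. Of the 15 mitochondrially encoded protein and rRNA genes 9 rose, 1 fell and 5 did not pass, with a median log2 change of 0.48 as deposited, 0.70 with equal sums of the other genes and 0.0016 with quantile normalization, where 3 rose and 2 fell. On that last scale 31 nuclear genes still fell (median -0.58). mt-Co1, the highest gene of both groups, measured 13188, 11082 and 10849 FPKM and then 22476, 23767 and 23716 FPKM (log2 change 1.00 ± 0.14 SE, limma adjusted p = 0.00079). Complex I genes of one molecule differed from each other. mt-Nd5 and mt-Nd6 rose by 1.37 and 1.47, mt-Nd2 and mt-Nd3 did not pass, and mt-Nd1 fell by 0.37, from 6584, 5052 and 5384 to 4199, 4427 and 4504 FPKM, a call that of the other scalings only quantile normalization kept and that was lost without any 1 differentiated replicate or without proliferation replicate 3. mt-Atp6 was at 6364, 6495 and 1375 FPKM in the differentiated replicates, of which replicate 3 stood apart, and did not pass. Of 21 tested mitochondrial tRNA genes 13 rose and 1 fell, with a median log2 change of 1.34. Nuclear copies share sequence with these genes and the library kit of the study does not mark strand, so reads of mitochondrial genes and their copies, or of opposite strands, are not fully told apart.

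Genes of the cell surface and surroundings changed in both directions. Of 22 tested collagen and matrix genes 11 rose and 5 fell. Sparc, a collagen-binding glycoprotein of astrocytes, went from 69.3, 41.4 and 38.3 to 247, 251 and 287 FPKM, and the 2 tenascin genes diverged, Tnr from 12.6 ± 3.65 to 84.9 ± 5.97 FPKM and Tnc, which is typical of stem cell niches, from 19.5 ± 1.82 to 1.72 ± 0.203 FPKM (log2 changes 2.78 ± 0.22 SE and -3.43 ± 0.12 SE). Of 17 tested glutamate and GABA receptor genes 8 rose and 4 fell, with the AMPA receptor gene Gria1 from 5.67 ± 1.83 to 37.3 ± 2.77 FPKM, the GABA-B subunit Gabbr2 from 4.1, 4.24 and 4.14 to 36.2, 39.3 and 38 FPKM and the metabotropic receptor Grm5 from 27 ± 7.58 to 3.5 ± 1.87 FPKM. Potassium channel genes numbered 6 rises and 5 falls among 19, and the fall of Kcnc4, a voltage-gated channel gene, from 3.26 ± 0.147 to 0.05 ± 0.0265 FPKM was the largest of that list. Kcnj10, the inward rectifier of glia, fell by 0.67. The 20 tested WNT genes had 6 rises and 9 falls, the former including the secreted modulator gene Dkk3, from 0.1, 0.08 and 0.09 to 3.15, 2.89 and 2.88 FPKM, and the latter the feedback targets Axin2 and Nkd1, by 0.82 and 1.44. Of 6 tested Hedgehog genes 2 fell, Gas1 by 1.03 and Sufu by 0.47, and 0 rose.

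Outside the lists, the largest changes held some genes of the same kinds and others of their own. Of the 12 largest rises by the rule, C3, Lcn2, Steap4 and Cxcl10 are acute phase genes, and Enpp6 was described above. Lgi4, a secreted protein that binds ADAM22, measured 0.25, 0.37 and 0.32 FPKM and then 32.7, 32.1 and 33 FPKM (log2 change 6.32 ± 0.13 SE, limma adjusted p = 2.3e-06), and Fxyd1 (phospholemman), a regulator of the sodium pump, 0.86, 0.21 and 0.26 and 29.2, 29.3 and 31.1 FPKM. Enkur, a gene of motile cilia and sperm, went from 0.0133 ± 0.0231 to 4.1 ± 0.771 FPKM and Gpr179, an orphan receptor gene, from 0.487 ± 0.151 to 20.4 ± 1.09 FPKM. Values of Ugt1a6b (0.837 ± 0.748 and 24.9 ± 3.6 FPKM), which shares exons with its neighbours of the Ugt1a cluster, and of Mir208a (0.137 ± 0.146 and 7.56 ± 2.08 FPKM), which lies inside Myh6, cannot be assigned to these genes with certainty. All 12 of the largest falls but Dusp6 were cell cycle genes or genes of dividing cells. Pbk, a mitotic kinase gene, led with 46.5, 43.1 and 51.6 FPKM in proliferation and 0.32, 0.21 and 0.2 FPKM under differentiation (log2 change -7.12 ± 0.16 SE), ahead of Pimreg with a log2 change of -7.02 ± 0.28 SE, and Pclaf, the PCNA-associated factor, Melk, Hmmr, Nek2 and the MYC network gene Mxd3 followed with log2 changes from -6.23 to -5.60. Of genes listed at 0 in every library of one group, Fxyd3, Fxyd7 and Drc7 were at 0 in proliferation and at 6.66 ± 0.832, 4.3 ± 0.501 and 2.4 ± 0.212 FPKM under differentiation, and Cox8b, a muscle isoform of cytochrome oxidase, was at 4.93 ± 3.24 FPKM in proliferation and at 0 under differentiation. Gm49369 was likewise at 0 in proliferation and at 28.6, 1.31 and 5.19 FPKM in the differentiated replicates, a 1-library excess.

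The same contrast in the 6 libraries with NAD+, none of them shared, gave 3857 calls of at least 2-fold (29.8%). Of the 3285 calls without NAD+, 3268 had the same sign there and 2695 were also called, 82.0% of the calls without and 69.9% of those with NAD+. The size of the change differed between the 2 pairs of groups for 101 genes (0.781%) in the limma fit of all 12 libraries, 42 of them among the 3285, and this number ran from 30 to 307 when 1 of the 12 libraries was left out, with 307 without proliferation replicate 1. C3 was at 90.9, 81 and 83.7 FPKM in the differentiated libraries without NAD+ and at 436, 429 and 425 FPKM with it, while both proliferating groups stayed under 0.38 FPKM, and Lcn2 was at 27.6, 21.6 and 25.7 and 176, 173 and 178 FPKM in the differentiated libraries. Tnc, by contrast, fell from 25.4, 27.5 and 27.1 to 0.48, 0.74 and 0.34 FPKM with NAD+, further than the 19.5 ± 1.82 to 1.72 ± 0.203 FPKM without it. Among the 41 mitosis genes and the 41 replication genes, 0 had a difference between the pairs past this test. A difference that did not pass does not show an equal change with and without NAD+.

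**Figure D5:**
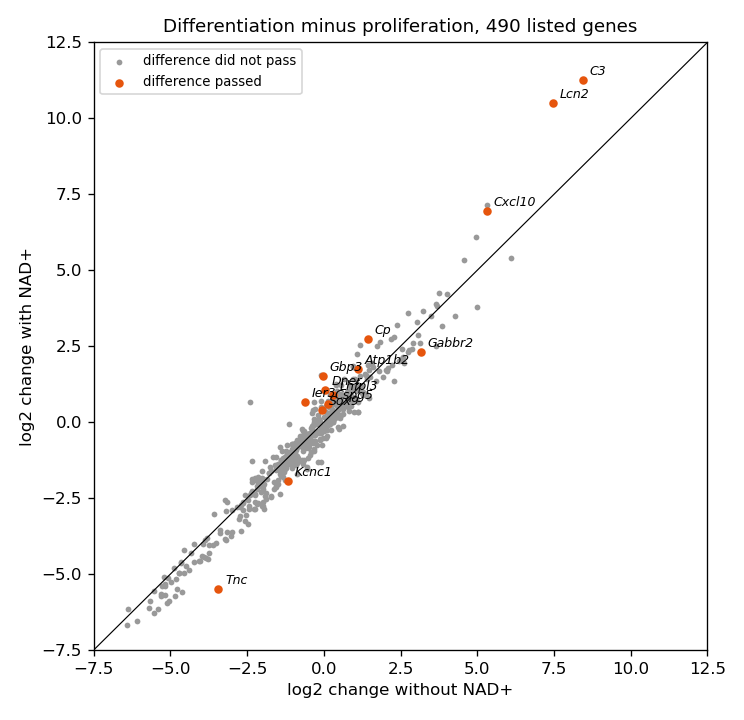
Log2 change from proliferation to differentiation without NAD+ (horizontal axis) and with NAD+ (vertical axis) for 490 tested genes of the lists, with the line of equal change. Orange points are the 14 genes whose 2 changes differed past the limma test, most of them near the line, and Lcn2 and C3 lie above it.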

How the data were processed

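RNA of aNSPCs was sequenced by the authors from libraries made with a kit that does not mark strand, reads were mapped to mm10 with Hisat2, and uniquely mapped reads were counted per gene with FeatureCounts. The authors deposited FPKM values rounded to 0.01, in 1 table per condition, and 0 columns of samples were left out. Read counts are not held by these values, so depth is unknown and no counting error is given. The deposited tables also hold the authors' fold changes, p-values and q-values of NAD+ against control, which were not used.

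Both tables were joined by gene ID, 0.1 was added and log2 taken. Genes with a mean of at least 1 FPKM were fitted with limma 3.58.1 (R 4.3.3, variance trend, two-sided, Benjamini-Hochberg adjustment over 12937 genes). A gene passed at an adjusted p under 0.05. Exact permutation tests used SciPy 1.17.1. Where a symbol had 2 IDs (Aldoa, Atp5o), the higher was taken. Positions came from GENCODE M21, found for 55141 IDs. The fit was tested on simulated data. The main fit did not pair libraries by replicate number.

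The genes named were members of the lists, the 12 largest rises and falls past the test without overlap of groups and also past it with median-ratio scaling, and the 5 highest genes of each group, without mitochondrial genes, predicted genes and genes at 0 in a group among the rises and falls. The comparison, lists and motifs were chosen with earlier results of these data known. A few genes of the rule and lists count in the totals and are not reported here by name. Alternatives changed the pseudocount, minimum level, scaling, variance model, pairing and libraries used.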

Additional observations from a re-analysis of the deposited data

Results flagged for a closer look

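The change from proliferation to differentiation differed with and without NAD+ for 6 of the genes named, by the limma contrast of the 2 changes over all 12 libraries. C3 rose by 8.46 without and 11.25 with NAD+ on the log2 scale, a difference of -2.79 (adjusted p = 0.032, limma, and 0.0069 to 0.088 when 1 library was left out). Lcn2 rose by 7.48 and 10.49, a difference of -3.01 (adjusted p = 0.0018, limma), and Cxcl10 by 5.33 and 6.95, a difference of -1.62 (adjusted p = 0.012, limma). All 3 were near 0 FPKM in proliferation, where the added 0.1 sets much of the fold. Tnc changed by -3.43 and -5.48, a difference of 2.05 (adjusted p = 0.012, limma), and Gabbr2 by 3.15 and 2.31, a difference of 0.84 (adjusted p = 0.012, limma). For Sox9 the changes were -0.05 and 0.41, a difference of -0.46 (adjusted p = 0.046, limma, and up to 0.12 when 1 library was left out). With replicate number added to the limma fit, C3 and Sox9 did not pass (adjusted p = 0.065 and 0.054, limma). Lcn2, Cxcl10, Tnc and Gabbr2 still passed in that fit.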

How the results depend on the processing

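Depth is unknown, and with 3 libraries a group no exact test could go below 0.1. Condition and table cannot be told apart, and the split of calls between higher and lower follows the scaling. For 167 named genes, 2713 values under the alternatives kept their direction and side of the threshold, 46 lost a call, 35 gained one and 8 turned direction. Calls were lost for 15 genes and gained for 14. The 2713 include 40 values, of 17 genes, that changed sign where neither setting passed. Same-numbered deviations from the group means correlated at -0.07, 0.02 and -0.07. With 3 libraries a group, such values cannot decide whether replicate numbers pair the libraries. With the replicate block 7430 genes passed, 3283 of them at least 2-fold, and 44 differed with and without NAD+.

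Genes passing numbered 7030 to 8806 and 2-fold calls 3199 to 3467 when 1 library was left out. Without a minimum level 4408 genes were higher, and 5238 changed at least 2-fold, 2718 of them higher. At a minimum of 0.1 FPKM these were 4436, 5277 and 2725. At a minimum of 5 FPKM 5129 passed, 1431 higher, and 1745 changed at least 2-fold, 501 higher and 1244 lower. With equal sums of all genes but the mitochondrial ones and their chromosome 1 copies, an alternative chosen after seeing the data, 3130 were lower, and 2030 higher and 1079 lower at least 2-fold. The difference with and without NAD+ passed for 185 genes with 1 added and for 30 to 307 with 1 library left out.

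List medians relative to the median of all genes were -2.26 for replication, -4.46 for mitosis, -0.42 for stem cells, 0.03 for neurons, 1.80 for maturing oligodendrocytes, -1.33 for growth factor feedback and 2.79 for acute phase genes. With 1 added they were -1.62 for replication, -2.79 for mitosis, -0.99 for feedback and 1.87 for acute phase, and with 0.01 added -2.34 for replication and -4.82 for mitosis. Without a minimum level they were -2.49 for replication, -4.71 for mitosis, -0.66 for stem cells, -0.14 for neurons, 1.24 for maturing oligodendrocytes and 2.02 for acute phase, and WNT and receptor genes turned to -0.016 and -0.11. At 0.1 FPKM they were -2.39, -4.61, -0.55, -0.12 and 2.12 for replication, mitosis, stem cells, neurons and acute phase, and at 5 FPKM -2.08, -0.34 and -0.60 for replication, stem cells and neurons. Quantile normalization gave -0.11 for stem cells and -0.11 for neurons. With 1 library left out, medians ranged from -2.31 to -2.18 for replication, -0.47 to -0.32 for stem cells and -0.14 to 0.13 for neurons. Under quantile normalization the log2 change turned to 0.28 for Egfr, 0.41 for Sox9, 0.13 for Glul, 0.38 for Srebf2 and -0.54 for mt-Nd2, and with equal sums without mitochondrial genes to 0.20 for mt-Nd3, and without the copies too to 0.32 for mt-Nd3 and 0.28 for Sox9. The cause was not tested.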

Other observations

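Ependymal cells line the brain ventricles and carry motile cilia. Of 9 listed ependymal genes 5 were tested and 4 of them rose, all at least 2-fold, with a median log2 change of 1.18 against -0.21 for all genes. Foxj1, the transcription factor that switches on motile cilia genes, measured 10.3, 8.7 and 9.71 FPKM in proliferation and 27.1, 29.4 and 25.9 FPKM under differentiation (log2 change 1.51 ± 0.09 SE, limma adjusted p = 3.7e-05), and Cfap126, a cilia protein gene, 1.01, 0.51 and 0.8 and 4.35, 4.08 and 3.12 FPKM. The groups did not overlap in either gene. Enkur and Drc7, both named above, are cilia genes too. The remaining 4 listed genes, among them Ccdc153 and Tmem212, were under the minimum level.

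The 4 neighbours on chromosome 7, Fxyd7, Fxyd1, Lgi4 and Fxyd3, chosen after their values were seen, rose from near 0. Fxyd7 (chr7:31042513-31051467, GRCm38) went from 0 to 4.30 FPKM on average, Fxyd1 (chr7:31051678-31057199) from 0.44 to 29.8, Lgi4 (chr7:31059342-31070935) from 0.31 to 32.6 and Fxyd3 (chr7:31068172-31076704) from 0 to 6.66. Lgi4 and Fxyd3 overlap in the annotation and strand was not marked, so their reads cannot be fully told apart. Usf2, further out beyond Fxyd5, was at 20.8 and 18.8 FPKM, while Fxyd5, directly beside Fxyd7, was at 0.013 and 0.24 FPKM.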
